A study of Homo sapiens with 6 samples.

Results

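The shortest intervals marked by H3K27me3 were described in Pfeiffer, WSU-DLCL2 and KARPAS-422, established lines of diffuse large B cell lymphoma, an aggressive tumour of mature B cells. Their labels state an EZH2 mutation for each, and mean gIC50 figures of 28, 134 and 232 nM, for a drug that they do not spell out. The study chose lines of unequal response to GSK126, which inhibits EZH2, and no treatment of the profiled cells with it is given in the labels. Chromatin of cells fixed with formaldehyde was immunoprecipitated with an antibody against H3K27me3. There was 1 immunoprecipitated and 1 input library per line. Lines were therefore compared without replicates and without a test. Enriched intervals, called islands, are built on a grid of 750 bases and were counted as short where they spanned under 5 kb, on the 22 autosomes. This rule gave 2129 short islands out of 71913, namely 328 of 21258 (Pfeiffer), 645 of 23066 (WSU-DLCL2) and 1156 of 27589 (KARPAS-422). Short islands were compared with the 37393 islands of 5 to 20 kb, the class next to them in length. The autosomal islands held 17024803, 17188115 and 16039824 H3K27me3 reads and 8800268, 8224578 and 5694645 input reads in the 3 lines, named in the same order throughout.

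H3K27me3 is a repressive histone mark written by Polycomb repressive complex 2, in which EZH2 is a catalytic subunit. The complex is recruited mainly to CpG-rich DNA near silent developmental genes and can extend the mark from there, because it binds the mark that it has written. The mark therefore often lies in broad domains, and germinal centre B cells, from which this lymphoma type often arises, use EZH2 to hold genes silent during their expansion. A short island is a stretch in which only a few neighbouring windows held enough reads to be called. It may be the whole of a small marked site or the only called piece of a longer and weaker one, and a list of islands does not separate these.

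Short islands were few in every line, and more frequent in WSU-DLCL2 and KARPAS-422 than in Pfeiffer. They were 1.54% of the Pfeiffer islands (exact binomial 95% interval 1.38 to 1.72%), 2.80% of the WSU-DLCL2 islands (2.59 to 3.02%) and 4.19% of the KARPAS-422 islands (3.96 to 4.43%). These intervals, and all others below, cover counting error only. Neighbouring islands share their region, and amplified copies of a molecule were not told apart by identifiers. Islands of 5 to 20 kb numbered 10079 of 21258, 11488 of 23066 and 15826 of 27589. Their share rose in the same order of lines, so this order was not particular to short islands. Short islands covered 1.20, 2.42 and 4.26 Mb, which was 0.163%, 0.339% and 0.599% of all bases in islands. They held 0.199%, 0.384% and 0.688% of the H3K27me3 reads in islands. Most were close to the limit: islands of 4.5 kb numbered 143, 290 and 486, and the median length was 3.75 kb in each line. Islands of at most 1.5 kb numbered 26, 34 and 61, and those of a single 750-base window 6, 11 and 12.

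The limit itself marked no step in the values. Islands of 4.5 kb, the longest length inside it, had a median fold over input of 1.78 (Pfeiffer), 1.74 (WSU-DLCL2) and 1.82 (KARPAS-422). Islands of 5.25 kb, the shortest length outside it, numbered 248, 366 and 700 and had median folds of 1.76, 1.68 and 1.76. The fold is the authors' ratio of H3K27me3 to input reads after scaling the libraries of a line. Island length was set by the same reads that give the counts and the fold, so these values describe the short islands and are not tested.

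Short islands had more H3K27me3 reads per kb than islands of 5 to 20 kb, and in the median not fewer input reads. The median was 27.2 H3K27me3 reads per kb in short islands of Pfeiffer (quartiles 24.0 and 32.3), against 18.8 in islands of 5 to 20 kb. In WSU-DLCL2 it was 26.2 in short islands and 19.9 in islands of 5 to 20 kb, and in KARPAS-422 25.1 and 19.3. The short islands thus stood at 1.44, 1.32 and 1.3 times the median of the longer class. All 328 short islands of Pfeiffer, 643 of 645 in WSU-DLCL2 and 1149 of 1156 in KARPAS-422 lay above that median. Length was set by the same reads, and a short island with few H3K27me3 reads is not listed. These counts therefore describe the lists and lend no support of their own. Input reads per kb did not run the other way. The median was 12.3 in short islands of Pfeiffer, against 10.4 in islands of 5 to 20 kb. In WSU-DLCL2 it was 11.5 in short islands and 10.3 in the longer class, and in KARPAS-422 7.78 and 7.38. The ratios of 1.18, 1.11 and 1.05 lay above 1, and 23.2%, 29.9% and 42.4% of the short islands had fewer input reads per kb than the median of the longer class. In the longer class itself that share was 49.7%, 49.6% and 49.9%, as the use of its own median sets. Neither direction was particular to short islands. Islands of at least 50 kb stood at 1.23, 1.24 and 1.21 times the H3K27me3 median of the 5 to 20 kb class. Their input ratios were 1.10, 1.11 and 1.05. The H3K27me3 ratios of short islands were higher than these in each line. Both conditions together, more H3K27me3 reads and fewer input reads per kb than the longer class, were met by 76, 191 and 485 short islands (23.2%, 29.6% and 41.96%). Among islands of 5 to 20 kb 16.1%, 15.8% and 20.04% met both. Nearly every short island met the first condition by the rule of the lists, so nothing is read from this difference. This reading depended on the list in part: among islands with a false discovery rate of at most 1e-10 the input ratio was 1.08 in Pfeiffer but 0.947 in WSU-DLCL2 and 0.952 in KARPAS-422, while the H3K27me3 ratio stayed between 1.27 and 1.46.

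On a log2 scale the difference can be split exactly into both parts. The mean log2 fold was 1.01 in short islands and 0.67 in islands of 5 to 20 kb of Pfeiffer, 0.90 and 0.65 in WSU-DLCL2, and 1.08 and 0.72 in KARPAS-422. The differences of 0.34, 0.26 and 0.36 were made up of parts of 0.59, 0.44 and 0.42 from H3K27me3 reads per kb and parts of -0.24, -0.18 and -0.06 from input reads per kb. In this split the part from input was thus negative in each line, and the part from H3K27me3 was larger than the whole difference. The same reads set which islands are listed and how long they are, so the split is a description. It was not made at a false discovery rate of at most 1e-10, where the median input ratio was below 1 in WSU-DLCL2 and KARPAS-422. KARPAS-422, with the fewest input reads in islands, showed the smallest part from input.

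Beside islands of the same region both ratios of short islands were again above 1. Each short island was divided by the pooled reads per kb of islands of at least 5 kb centred within 2.5 Mb of it. H3K27me3 reads were then 1.26 (Pfeiffer), 1.15 (WSU-DLCL2) and 1.20 (KARPAS-422) times the surroundings (medians), against 0.928, 0.905 and 0.945 for islands of 5 to 20 kb. Input reads were 1.12, 1.06 and 1.03 times the surroundings in short islands and 0.965, 0.949 and 0.976 times in islands of 5 to 20 kb. An H3K27me3 level of at least 1.3 times the surroundings was reached by 144, 181 and 364 short islands (44.0%, 28.1% and 31.5%). Among islands of 5 to 20 kb the shares were 2.30%, 3.48% and 2.18%. Length was set by the same reads, so this difference is a description. An input level of at most 0.75 of the surroundings was found in 18, 44 and 117 short islands (5.50%, 6.83% and 10.1%). The shares among islands of 5 to 20 kb were near these in Pfeiffer and WSU-DLCL2 (4.91% and 7.32%) and lower in KARPAS-422 (6.32%). Only 4, 2 and 33 short islands met both limits, and 3, 2 and 11 of the more numerous islands of 5 to 20 kb.

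Among islands of up to 9.75 kb, median H3K27me3 reads per kb were higher the shorter the island. The fewest reads of any listed island fell less steeply than its length. The fewest H3K27me3 reads in any listed island of 750 bases numbered 43 (Pfeiffer), 42 (WSU-DLCL2) and 38 (KARPAS-422). For islands of 4.5 kb the fewest were 88, 81 and 80. The lowest counts at 750 bases rest on only 6, 11 and 12 islands. Median H3K27me3 reads per kb were 63.3, 61.3 and 61.3 in islands of 750 bases, 44.0, 40.7 and 38.7 at 1.5 kb, and 23.8, 24.0 and 22.9 at 4.5 kb. The part of these lowest counts in the difference was not tested.

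Among the shortest islands the lines parted in their input. The 6 islands of 750 bases in Pfeiffer had a median of 22.7 input reads per kb, which was 2.17 times the median of islands of 5 to 20 kb. The 11 in WSU-DLCL2 had 26.7, or 2.58 times. The 12 in KARPAS-422 had 8.67, or 1.17 times, from a median of 6.5 input reads per island. Their median folds were accordingly 2.61, 1.84 and 4.41. At 1.5 kb the input ratios were 1.66, 1.55 and 1.08 and the folds 2.39, 2.01 and 3.09. In Pfeiffer and KARPAS-422 the median fold was highest at 750 bases and lower at each longer length up to 4.5 kb, while in WSU-DLCL2 it lay between 1.74 and 2.01 at all these lengths.

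**Figure D1:**
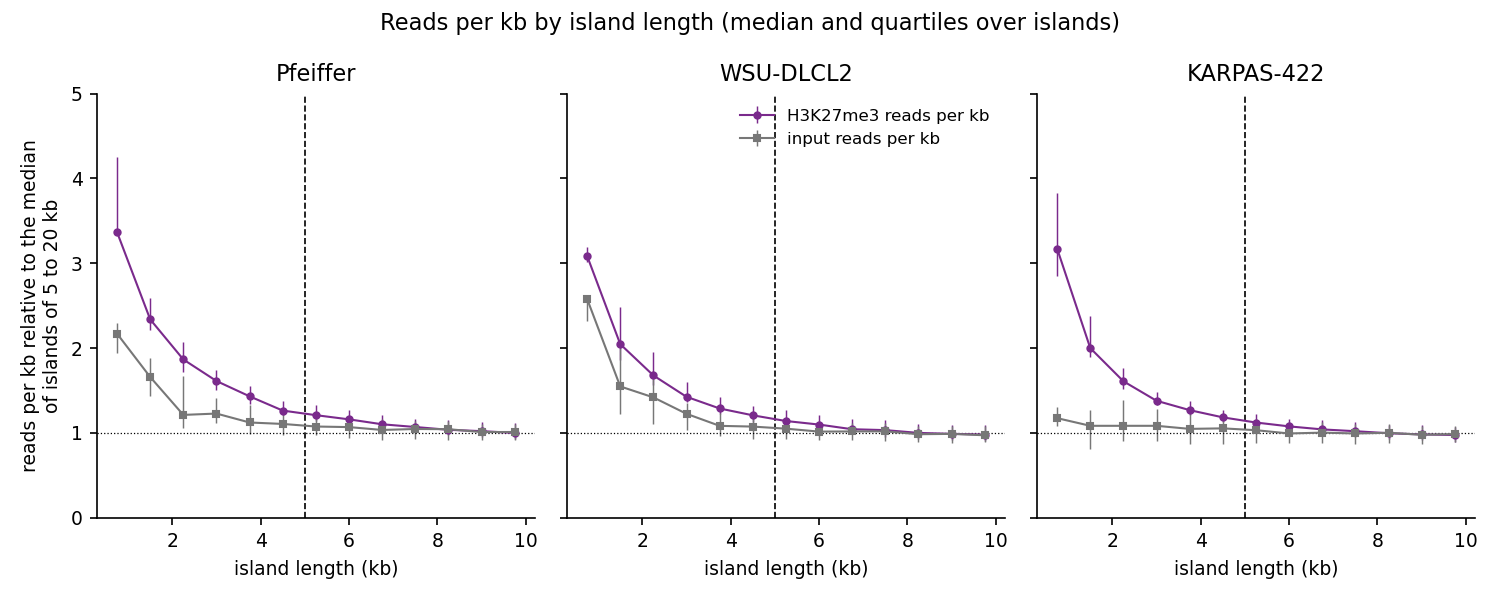
H3K27me3 reads per kb (circles) and input reads per kb (squares) by island length in kb, each divided by the median of islands of 5 to 20 kb of the same line; points are medians over islands, bars quartiles, and the dashed line marks the limit of 5 kb. Under the limit H3K27me3 reads are above 1 at every length, while input at 0.75 kb reaches 2.17 in Pfeiffer and 2.58 in WSU-DLCL2 and in KARPAS-422 stays between 1.05 and 1.17.

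The threshold of the lists also set how low the fold of a short island could be. The deposited p-values were returned by a Poisson probability of the H3K27me3 reads given the scaled input reads, so the smallest fold that a list allows is known for any number of input reads. Short islands held a median of 102, 101 and 95 H3K27me3 reads and 46, 43 and 29 input reads, against 231, 233 and 212 H3K27me3 reads and 129, 120 and 81 input reads in islands of 5 to 20 kb. At these few reads the smallest allowed fold had a median of 1.45 (Pfeiffer), 1.45 (WSU-DLCL2) and 1.49 (KARPAS-422). For islands of 5 to 20 kb it was 1.27, 1.26 and 1.28. Of the short islands, 59, 121 and 225 (18.0%, 18.8% and 19.5%) could not have been listed with the median fold of the longer class, against 0.0298%, 0.0609% and 0.107% of that class. The observed fold was 1.31, 1.24 and 1.34 times the smallest allowed one in short islands and 1.22, 1.19 and 1.23 times in islands of 5 to 20 kb. The distance from the threshold was thus more alike between the classes than the folds themselves, whose medians were 1.93, 1.81 and 1.99 in short islands and 1.55, 1.51 and 1.58 in the longer class. Islands of at least 50 kb also had higher median folds than that class, with 1.70, 1.68 and 1.81.

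**Figure D2:**
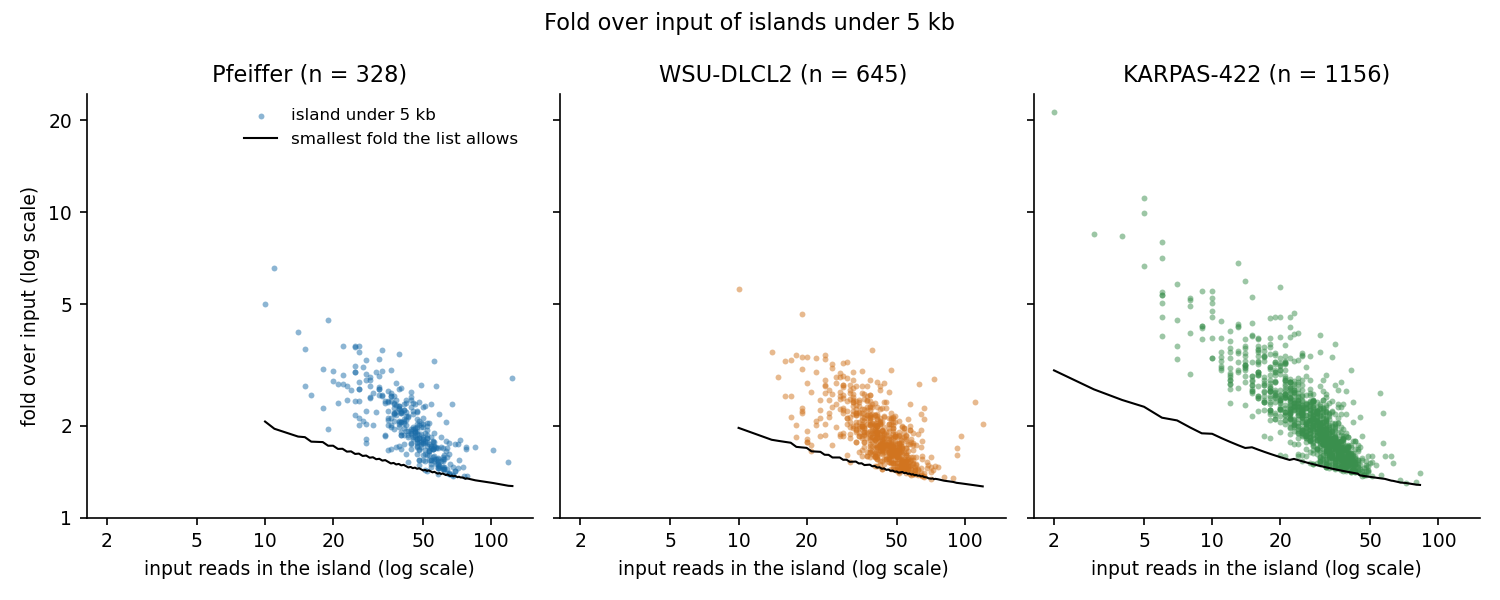
Fold over input against input reads for each short island, both on log scales, with the smallest fold that each list allows at that number of input reads (line). Islands lie on or above the line, folds are higher where input reads are fewer, and only KARPAS-422 has islands with fewer than 10 input reads, among them all folds above 7.

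Few input reads did mark the short islands with the highest folds. Folds of 2 or more were found for 150, 205 and 572 short islands (45.7%, 31.8% and 49.5%), where 10.5%, 11.3% and 19.6% of all autosomal islands reached it. The length rule used the same reads, so nothing is read from this difference. Within that group input reads per kb were 1.02, 0.903 and 0.904 times the median of the longer class, and H3K27me3 reads per kb 1.57, 1.40 and 1.38 times. With a fold under 2 the input ratio was 1.28, 1.18 and 1.17 and the H3K27me3 ratio 1.35, 1.28 and 1.23. A fold of at least 3 was seen in 21, 21 and 147 short islands, which had input ratios of 0.702, 0.710 and 0.693 and H3K27me3 ratios of 1.61, 1.5 and 1.63. These islands were picked by a ratio in which low input counts raise the value, and they held a median of 25, 22 and 15 input reads. Low input at high folds was not particular to short islands. Among islands of 5 to 20 kb the input ratios were 0.856, 0.861 and 0.791 at folds of at least 2. At folds of at least 3 they were 0.525, 0.798 and 0.620.

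Few short islands lay in regions of low input. Surroundings with an input of at most 0.75 of the line's median held 9 (Pfeiffer), 2 (WSU-DLCL2) and 22 (KARPAS-422) short islands, or 2.75%, 0.311% and 1.91% of those with measurable surroundings. Of islands of 5 to 20 kb, 0.974%, 0.392% and 1.12% lay in such regions. In these regions short islands were a larger share of all islands than in regions of middle input, 6.38% against 1.51% in Pfeiffer and 9.13% against 4.20% in KARPAS-422, and 3.45% against 2.85% in WSU-DLCL2, where the share rests on 2 islands. Their median folds there were 2.51 in Pfeiffer and 3.23 in KARPAS-422, against 1.96 and 2.00 in regions of middle input. Islands of 5 to 20 kb showed both traits as well. They were 69.5% of islands in low regions against 49.6% in middle ones in Pfeiffer, and 73.4% against 58.7% in KARPAS-422. Their median folds were 2.42 in low and 1.55 in middle regions of Pfeiffer, and 2.54 and 1.58 in KARPAS-422. Regions with an input of at least 1.3 held 32, 20 and 46 short islands, with median folds of 1.70, 1.65 and 1.62. These were 9.79%, 3.11% and 3.99% of the short islands with measurable surroundings, against 5.68%, 2.44% and 2.74% of islands of 5 to 20 kb. The longer class had a median fold of 1.42 there in each line, so lower folds in such regions were not particular to short islands.

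Short islands lay on every autosome and were most frequent, as a share of islands, on chromosome 19. They made up 22 of its 702 Pfeiffer islands (3.13%, 95% interval 1.97 to 4.71%), 44 of 754 WSU-DLCL2 islands (5.84%, 4.27 to 7.76%) and 55 of 915 KARPAS-422 islands (6.01%, 4.56 to 7.75%). The median chromosome had 1.54%, 2.63% and 4.01%. Without the outer 5 Mb at either end the share on chromosome 19 was 2.68%, 5.25% and 5.11%, and it was then exceeded by chromosome 17 in Pfeiffer (2.78%) and by chromosomes 6, 7 and 11 in KARPAS-422 (5.53%, 5.37% and 5.20%). The lowest shares were 0.693% on chromosome 18 in Pfeiffer, 1.34% on chromosome 13 in WSU-DLCL2 and 2.89% on chromosome 14 in KARPAS-422. On chromosome 14 the 20 short islands of KARPAS-422 had an input ratio of 1.35 and a median fold of 1.52. Across the 22 autosomes the share of short islands had a Spearman's rho of 0.36, 0.44 and 0.40 with protein-coding genes per Mb, and the number of short islands per Mb had a rho of 0.69, 0.77 and 0.68. These are given as a description, since chromosomes of 1 library are not replicates and both values share the gene-rich chromosome ends.

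As a share of islands, short islands were most frequent in the outer 5 Mb of the chromosomes in each line. The share there exceeded that of the whole list beyond counting error in Pfeiffer and WSU-DLCL2 but not in KARPAS-422. Within 5 Mb of an end lay 66 of 328 Pfeiffer short islands (20.1%, 95% interval 15.9 to 24.9%), 98 of 645 WSU-DLCL2 short islands (15.2%, 12.5 to 18.2%) and 147 of 1156 KARPAS-422 short islands (12.7%, 10.8 to 14.8%). Of the islands of 5 to 20 kb, 9.61%, 10.0% and 9.71% lay that near an end. Short islands made up 2.88% of the islands in the outer 5 Mb of Pfeiffer (95% interval 2.24 to 3.66%) and 1.12% of those over 40 Mb from an end. In WSU-DLCL2 these shares were 3.83% (3.12 to 4.64%) and 2.55%. In KARPAS-422 they were 4.93% (4.18 to 5.77%) and 4.54%, with a lower share of 3.50% between 20 and 40 Mb. The median fold of short islands was 2.19 (Pfeiffer), 1.84 (WSU-DLCL2) and 2.43 (KARPAS-422) in the outer 5 Mb and 1.83, 1.73 and 1.90 over 40 Mb away. Islands of 5 to 20 kb had the same direction, with 1.68, 1.58 and 1.86 in the outer 5 Mb and 1.51, 1.49 and 1.52 over 40 Mb away, so higher folds near the ends were not particular to short islands. In KARPAS-422 short islands had an input ratio of 0.964 near the ends and 1.08 far from them, and H3K27me3 ratios of 1.41 and 1.28. Islands of 5 to 20 kb of that line had input ratios of 0.925 and 1.03. In Pfeiffer the input ratio of short islands was 1.20 near the ends and 1.23 far from them, and the H3K27me3 ratio 1.58 and 1.41.

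**Figure D3:**
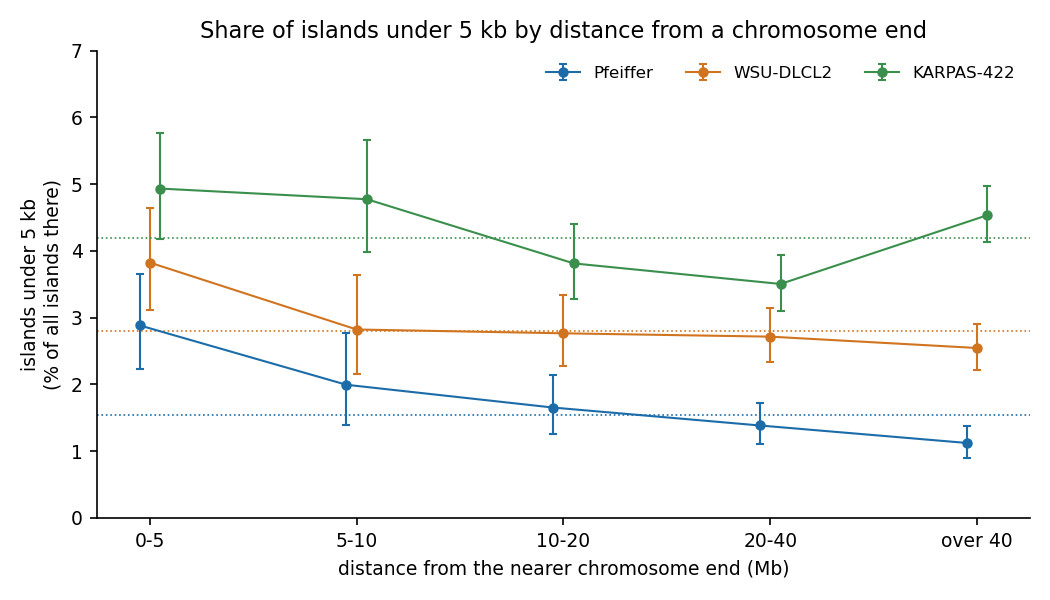
Short islands as a percentage of all islands, by distance from the nearer chromosome end in Mb, for the 3 lines; bars are exact binomial 95% intervals and dotted lines the share over all autosomes. The share is highest in the outer 5 Mb in each line, 2.88% (Pfeiffer), 3.83% (WSU-DLCL2) and 4.93% (KARPAS-422).

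Short islands were as a rule near another island of their own list. The nearest one lay at a median of 8.25 kb for Pfeiffer (95% interval of the median 6.75 to 10.5 kb), 6.75 kb for WSU-DLCL2 (6.00 to 8.25 kb) and 7.50 kb for KARPAS-422 (6.75 to 8.25 kb). For islands of 5 to 20 kb the medians were 6.75, 6.00 and 6.00 kb, and for islands of at least 50 kb 3.75 kb in each line. Islands of a list were never closer than 3 kb, and 61, 166 and 249 short islands (18.6%, 25.7% and 21.5%) had a neighbour at exactly this distance. A neighbour within 10 kb was found for 54.0%, 57.98% and 56.8% of the short islands, against 59.0%, 61.3% and 62.5% of the islands of 5 to 20 kb. Another short island lay within 10 kb of 4, 26 and 60 short islands (1.22%, 4.03% and 5.19%), against 1.18%, 2.13% and 3.10% of the islands of 5 to 20 kb.

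A smaller set stood alone. No island of the same list lay within 50 kb of 41 (Pfeiffer), 93 (WSU-DLCL2) and 167 (KARPAS-422) short islands (12.5%, 14.4% and 14.4%), against 11.6%, 11.1% and 9.92% of the islands of 5 to 20 kb. In Pfeiffer 37 of the 41 met an island of another line (90.2%), a larger share than of the 177 with a neighbour within 10 kb (76.3%). In KARPAS-422 the order was the opposite, with 82 of 167 (49.1%) against 512 of 657 (77.9%). In WSU-DLCL2 it was 62.4% against 72.7%. Over all autosomal islands the shares that met another line were 89.2%, 87.8% and 83.8%, so the 90.2% in Pfeiffer was near that of its whole list. This split was not made for islands of 5 to 20 kb, and nothing is read from its order in the lines.

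Most short islands met an island of another line, though fewer than did longer ones. At least 1 base was shared with an island of another line by 251 of 328 Pfeiffer short islands (76.5%, 95% interval 71.6 to 81.0%), 441 of 645 WSU-DLCL2 short islands (68.4%, 64.6 to 71.9%) and 806 of 1156 KARPAS-422 short islands (69.7%, 67.0 to 72.4%). Over all autosomal islands the shares were 89.2%, 87.8% and 83.8%, and over islands of 5 to 20 kb 83.4%, 81.4% and 78.3%. Both other lines were met by 149, 223 and 442 short islands (45.4%, 34.6% and 38.2%), where 65.8%, 64.6% and 60.3% of all autosomal islands met both. A longer island more easily shares a base. With only the 750 bases at the centre of each island the classes were close in Pfeiffer, where 57.6% of short islands and 61.1% of islands of 5 to 20 kb lay in an island of WSU-DLCL2, and 60.1% and 60.7% in one of KARPAS-422. They stayed apart in WSU-DLCL2, with 50.7% and 61.2% in an island of Pfeiffer and 49.3% and 59.5% in one of KARPAS-422. In KARPAS-422 the shares were 49.9% and 59.4% against Pfeiffer and 55.6% and 59.3% against WSU-DLCL2.

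The islands that short islands met were as a rule longer than 5 kb and were near in length to those met by islands of 5 to 20 kb. The island met in WSU-DLCL2 by short islands of Pfeiffer had a median length of 20.25 kb, and that in KARPAS-422 13.5 kb. For short islands of WSU-DLCL2 the medians were 23.6 kb in Pfeiffer and 13.5 kb in KARPAS-422, and for those of KARPAS-422 23.25 kb in Pfeiffer and 21.75 kb in WSU-DLCL2. For islands of 5 to 20 kb the medians over the same 6 ordered pairs of lines were 20.25, 17.25, 24.0, 17.25, 27 and 24.75 kb. Short islands lay wholly inside another line's islands in 38.9 to 51.8% of cases over these pairs, and in 45.1 to 61.4% of those the longer island also met at least 1 more island of the short island's own list. Among islands of 5 to 20 kb that last share was 47.8 to 62.1%. Short islands also met each other. The main partner of an island is the island of the other list with which it shares most bases. Of the Pfeiffer short islands, 35 had a short island as their main partner in WSU-DLCL2 (10.7% of the short islands of Pfeiffer and 5.43% of those of WSU-DLCL2) and 52 in KARPAS-422 (15.9% and 4.50%). WSU-DLCL2 and KARPAS-422 shared 74 (11.5% and 6.40%). Of islands of 5 to 20 kb, 0.354 to 1.69% had a short island as main partner. A longer island can share more bases with a longer partner, so this rule favours short partners less there, and the difference is not read. Identical first and last bases in both lists were found for 19, 19 and 36 of the pairs of short islands. As a share of the short islands that met the other line, this was 9.55% (Pfeiffer with WSU-DLCL2), 9.45% (Pfeiffer with KARPAS-422), 5.69% (WSU-DLCL2 with Pfeiffer), 10.9% (WSU-DLCL2 with KARPAS-422), 3.21% (KARPAS-422 with Pfeiffer) and 5.48% (KARPAS-422 with WSU-DLCL2). The shares among islands of 5 to 20 kb were 2.99%, 3.75%, 2.67%, 3.55%, 2.55% and 2.69% in the same order. Islands of that class have more possible lengths, so equal ends are less easily reached.

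**Figure D4:**
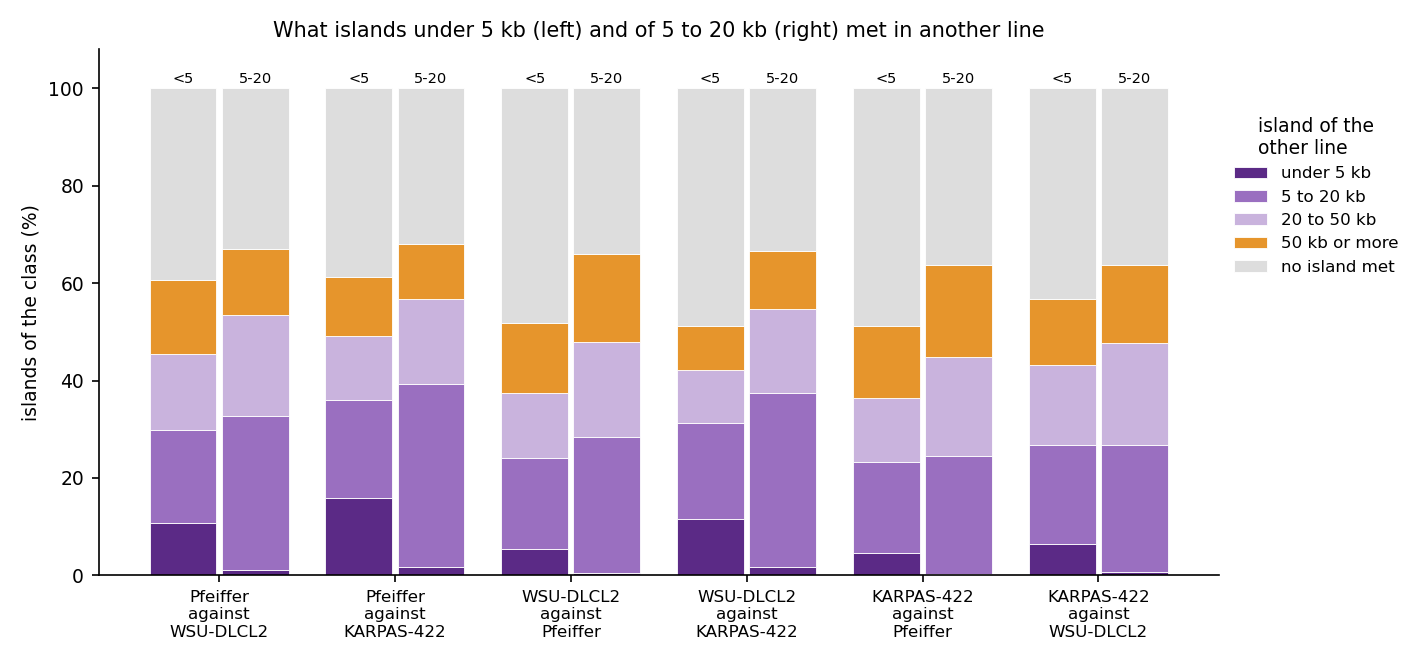
For each ordered pair of lines, the percentage of short islands (left bar) and of islands of 5 to 20 kb (right bar) whose main partner in the other line had the length class shown, or that met no island. The main partner is the island with most shared bases. Short partners make up 4.50 to 15.9% of the short islands and at most 1.69% of the longer class, where the rule favours longer partners.

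Short islands that met neither other line were 77 (Pfeiffer), 204 (WSU-DLCL2) and 350 (KARPAS-422) (23.5%, 31.6% and 30.3%). In each line they had a lower median fold and fewer H3K27me3 reads per kb than those that met both, though the folds were close in WSU-DLCL2. Their median folds were 1.80, 1.79 and 1.90, against 1.99, 1.81 and 2.12 for short islands that met both other lines. H3K27me3 reads per kb stood at 1.40, 1.28 and 1.27 times the longer class in islands that met neither line and at 1.47, 1.34 and 1.33 times in those that met both. Islands of 5 to 20 kb had the same directions, so neither was particular to short islands. Their median folds were 1.48, 1.49 and 1.49 where they met neither line and 1.60, 1.53 and 1.65 where they met both. Their H3K27me3 ratios were 0.951, 0.965 and 0.952 against 1.04, 1.02 and 1.04. In Pfeiffer short islands that met neither line were also longer, with a median of 4.5 against 3.75 kb. Of the short islands that met neither line, 42, 127 and 262 lay over 10 kb from any island of both other lists, and 11, 55 and 136 over 50 kb. Those over 10 kb away were 12.8%, 19.7% and 22.7% of all short islands, against 10.4%, 12.1% and 16.1% of the islands of 5 to 20 kb. Where a list has no island, reads may still lie below its threshold.

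At 18 places on 16 chromosomes all 3 lists had a short island with shared bases, and at 8 of them the first and last base were the same in every list. The islands at these places were 5.49%, 2.79% and 1.56% of the short islands of the 3 lines. H3K27me3 reads per kb were above the median of the longer class at all 18 places in each line, with medians of 1.68, 1.99 and 1.77 times. Nearly all short islands lie above that median by the rule of the lists, so this count is not a trait of the shared places. Input reads per kb were below the median of the longer class at 2 (Pfeiffer), 4 (WSU-DLCL2) and 9 (KARPAS-422) places, and their medians were 1.31, 1.45 and 0.994 times. The highest fold of the 3 lines was that of KARPAS-422 at 11 places, of WSU-DLCL2 at 5 and of Pfeiffer at 2, and the lowest input ratio was that of KARPAS-422 at 11 places as well. At 5 of the 18 places the 95% counting intervals of the folds of a pair of lines did not overlap. Such places were not counted among longer islands, so nothing is read from this number.

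The 8 places that rank highest by the lowest of their 3 fold percentiles lie on chromosomes 16, 20, 6, 4, 17, 21, 9 and 2 (positions on hg19, not matched to genes). The first, on chromosome 16 from 1287751 to 1288500 in every list, is a single window with 84 H3K27me3 and 11 input reads in Pfeiffer, 74 and 19 in WSU-DLCL2 and 70 and 2 in KARPAS-422. H3K27me3 reads there were 5.95, 4.97 and 4.83 times the longer class, while input was 1.40, 2.45 and 0.361 times. The lines thus had nearly the same H3K27me3 level, and their folds of 6.58, 3.07 and 21.3 (95% interval 5.67 to 179 in KARPAS-422) went with a wide spread in the input. On chromosome 20 from 46523251 to 46527000 the lists had 414, 177 and 232 H3K27me3 reads and 124, 66 and 55 input reads. The folds were 2.87 (2.35 to 3.54), 2.11 (1.58 to 2.85) and 2.56 (1.90 to 3.51), and input was 3.17, 1.70 and 1.99 times the longer class, so both libraries were high at this site.

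Like folds in the 3 lines were found on chromosome 6 from 43474501 to 43477500, where the nearest island of the same list was 30 to 34.5 kb away. It held 179, 154 and 129 H3K27me3 reads and 57, 44 and 33 input reads. Its folds were 2.70 (2.00 to 3.71), 2.76 (1.96 to 3.95) and 2.38 (1.61 to 3.60), and their intervals overlap in all pairs. On chromosome 21 from 41510251 to 41513250 the folds were 2.18, 1.88 and 2.63, and the nearest island of the same list lay 3 to 3.75 kb away. On chromosome 17 the islands spanned 20514751 to 20519250 in Pfeiffer and KARPAS-422 and 20516251 to 20519250 in WSU-DLCL2. Their folds were 2.12 (1.51 to 3.00), 2.36 (1.51 to 3.80) and 5.27 (3.08 to 9.68). H3K27me3 reads there were 1.45, 1.36 and 1.49 times the longer class and input 1.06, 0.871 and 0.452 times, so KARPAS-422 stood out here by its input. The remaining places, on chromosome 4 near 9747001, chromosome 9 from 111009751 and chromosome 2 near 97732501, had folds of 1.81 to 2.55 in Pfeiffer and WSU-DLCL2 and of 3.61 to 4.74 in KARPAS-422. At the other end of the order stood chromosome 1 from 148549501 to 148553250, with 210, 188 and 173 H3K27me3 reads and 119, 92 and 80 input reads. Both libraries were high there too, with input at 3.04, 2.37 and 2.89 times the longer class and folds of 1.52, 1.61 and 1.31, and no island of the same list lay within 344 kb.

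**Figure D5:**
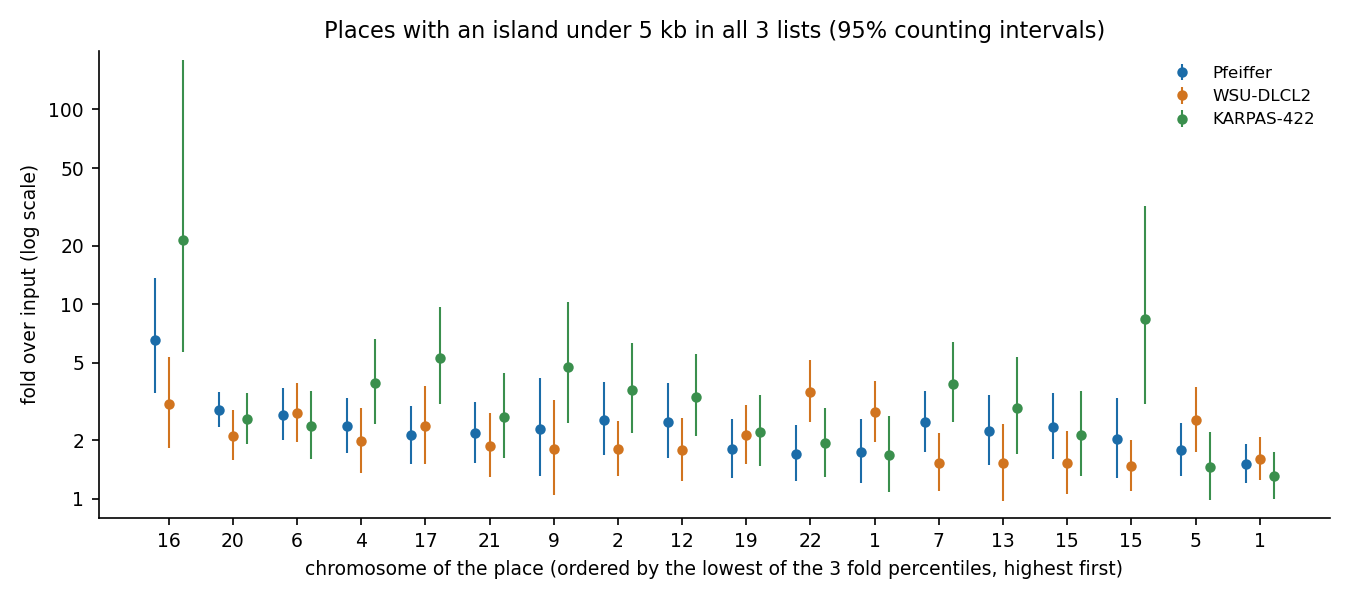
Fold over input on a log scale at the 18 places with a short island in all 3 lists, labelled by chromosome and ordered by the lowest of the 3 fold percentiles; bars are 95% counting intervals. Intervals overlap between all lines at 13 places, a count that was not made for longer islands. The highest points, 21.3 on chromosome 16 and 8.36 on chromosome 15, are KARPAS-422 islands with 2 and 4 input reads.

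The short islands with the highest folds in a line had few input reads. After the site on chromosome 16, Pfeiffer was led by chromosome 9 from 141036751 to 141038250, with 58 H3K27me3 and 10 input reads (fold 4.99, 95% interval 2.53 to 11.0), and chromosome 17 from 8295751 to 8300250, with 98 and 19 reads (4.44, 2.70 to 7.69). The site on chromosome 17 lay where the input of the surroundings was 0.521 of the line's median and within islands of 42 kb in WSU-DLCL2 and 23.25 kb in KARPAS-422. WSU-DLCL2 was led by chromosome 12 from 132411751 to 132413250, with 71 and 10 reads (5.59, 2.87 to 12.2) and no base in an island of another line. Next came chromosome 15 from 76629751 to 76634250 (112 and 19 reads, 4.65, 2.84 to 8.00) at an input of the surroundings of 0.634, and chromosome 22 from 39893251 to 39897750 (175 and 39 reads, 3.54, 2.49 to 5.14). At this last site Pfeiffer and KARPAS-422 had islands with identical ends and folds of 1.71 (1.23 to 2.39) and 1.93 (1.3 to 2.93). In KARPAS-422 the next folds were those on chromosome 11 from 125025001 to 125026500, with 92 and 5 reads (11.2, 4.62 to 35.3), and from 118479001 to 118480500, with 82 and 5 reads (9.97, 4.10 to 31.5). Picked for their fold, such islands have folds that are likely overestimated.

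Both of these islands on chromosome 11 lay inside long islands of the other lines. The first had around it islands of 339.75 kb in Pfeiffer (fold 1.96) and 359.25 kb in WSU-DLCL2 (fold 1.75), the second islands of 83.25 and 111 kb (folds 2.19 and 2.42). The input of their surroundings in KARPAS-422 was 0.563 and 0.521 of the median. H3K27me3 reads were nonetheless 3.17 and 2.83 times the longer class of islands. Over all short islands, 19 (Pfeiffer), 23 (WSU-DLCL2) and 66 (KARPAS-422) lay inside islands of at least 50 kb in both other lines (5.79%, 3.57% and 5.71%). The share of longer islands that did so was not counted, so these numbers are not read as a trait of short islands. Surroundings of low input were found for 1 of these 19, 0 of 23 and 6 of 66 short islands. Of all short islands with measurable surroundings, 2.75%, 0.311% and 1.91% had this. Of the short islands inside such long islands, 14 of 19, 19 of 23 and 55 of 66 had an island of their own list within 10 kb. Of all short islands, 54.0%, 57.98% and 56.8% had one. Examples at middle input were chromosome 7 from 157663501 to 157668000 in Pfeiffer (fold 3.44), inside islands of 196.5 kb in WSU-DLCL2 and 357 kb in KARPAS-422, and chromosome 6 from 168486751 to 168488250 in WSU-DLCL2 (fold 2.51), inside islands of 127.5 kb in Pfeiffer and 109.5 kb in KARPAS-422. Another in WSU-DLCL2 lay on chromosome 9 from 100338751 to 100342500 (fold 2.42), inside islands of 84 kb in Pfeiffer and 80.25 kb in KARPAS-422. In Pfeiffer the island on chromosome 8 from 6708001 to 6712500 (fold 3.55) lay inside islands of 123 and 122.25 kb, at surroundings of 0.619.

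Some short islands with many H3K27me3 reads had many input reads as well. The highest level of WSU-DLCL2, 150 H3K27me3 reads per kb on chromosome 20 from 47130751 to 47133000, came with 49.3 input reads per kb, 4.77 times the longer class, and a fold of 2.40 (1.93 to 3.00). In KARPAS-422 the highest level, 94.0 H3K27me3 reads per kb, lay on chromosome 7 from 149700001 to 149701500, a window pair listed with the same ends in every line. It held 127, 105 and 141 H3K27me3 reads and 44, 54 and 22 input reads, and the folds were 2.49 (1.75 to 3.59), 1.53 (1.09 to 2.17) and 3.90 (2.47 to 6.41). The nearest island of the same list was 114 kb or farther away in each line. Input over 3 times the median of the longer class was seen in 3, 3 and 1 short islands.

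The most isolated short islands were found on chromosomes 14 and 12 in Pfeiffer, 12 in WSU-DLCL2 and 3 and 11 in KARPAS-422. In Pfeiffer the island on chromosome 14 from 45342751 to 45347250 (107 and 36 reads, fold 2.56, 1.74 to 3.84) had no other island of its list within 4.54 Mb, and KARPAS-422 had an island of 17.25 kb around it. That on chromosome 12 from 19554751 to 19557750 lay 2.03 Mb from the next, and both other lines had a short island there, 28.5 kb from the next island in WSU-DLCL2 and 184.5 kb in KARPAS-422. In WSU-DLCL2 an island of 1 window on chromosome 12 from 34389001 to 34389750 (46 and 21 reads, fold 1.73, 1.01 to 3.05) lay 1.47 Mb from the next, with input 2.71 times the longer class. Next in that line came chromosome 12 from 29715751 to 29720250 (103 and 53 reads, fold 1.53, 1.09 to 2.18), 978 kb from its own list and within an island of 10.5 kb in KARPAS-422. In KARPAS-422 the island on chromosome 3 from 146193751 to 146196000 (72 and 15 reads, fold 2.92, 1.66 to 5.48) lay 2.37 Mb from its own list and 62.25 kb from the nearest island of another line. On chromosome 11 (100596751 to 100599000) an island had fold 1.5, with an interval of 0.953 to 2.41 that includes 1, where the input of the surroundings was 2.38 times the median, and no other line had an island within 1.13 Mb.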

How the data were processed

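H3K27me3 and input libraries of 3 lymphoma cell lines were compared through the islands deposited for each line. The submitters' processing notes name Bowtie, SICER and hg19. Versions of these and the filters on reads were not given in the sources used here. List names carry the SICER settings, 750 bases per window, gaps up to 2250 bases, and 0.001 as false discovery rate. For every island the authors deposited whole counts of reads from both libraries, the ratio of these counts after scaling (the fold), and a p-value with its q-value. Total library depth is unknown, since these lists cover islands alone.

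Length was the last minus the first position plus 1. Distances count the bases between islands, and sharing means at least 1 base. Chromosome ends were position 1 and the last listed base of any list. Surroundings were islands of at least 5 kb centred within 2.5 Mb, the island itself left out, with at least 30 kb in all. Median intervals are order-statistic intervals, share intervals exact binomial (Clopper-Pearson), and fold intervals exact for a ratio of 2 counts, all at 95%. Functions for distance, overlap and intervals were tested on simulated islands. Positions are printed counted from 1. No hg19 genome or annotation was used here, so islands are named by position, their sequences are not printed, the planned results on gene starts and base composition were not run, and the cell type was not checked by markers. Protein-coding genes per chromosome came from the RefSeq table for GRCh38.p14.

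Named islands were, per line, the 3 short islands with the highest fold and at least 30 H3K27me3 reads, the 2 with most H3K27me3 reads per kb, the 2 farthest from their own list and 2 inside islands of at least 50 kb in both other lines, and up to 8 places with a short island in all 3 lists. The members and rules were chosen with earlier results of these data known. Alternatives were a false discovery rate of at most 1e-10, a limit of 3 kb, joined islands, other comparison classes and other overlap rules. Python 3.11.15, numpy 2.4.6, pandas 2.3.3, scipy 1.17.1 and matplotlib 3.10.9 were used.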

Additional observations from a re-analysis of the deposited data

Results flagged for a closer look

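Chromosome X lay outside the comparisons and also held short islands. Their numbers were 4 (Pfeiffer), 8 (WSU-DLCL2) and 39 (KARPAS-422), or 6.67%, 7.02% and 4.42% of the 60, 114 and 883 islands listed on it. Their median folds over input were 2.00, 2.75 and 1.92. Every listed island exceeds the scaled input by the rule of the lists, and no test between lines was made.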

How the results depend on the processing

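The order of the 3 lines in the number of short islands, fewest in Pfeiffer and most in KARPAS-422, was the same under each of the 4 alternatives. Joining islands under 5 kb apart gave 210, 368 and 711, a false discovery rate of at most 1e-10 gave 131, 188 and 482, a limit of 3 kb gave 50, 70 and 155, and with chromosome X the numbers were 332, 653 and 1195. H3K27me3 reads per kb stayed above the longer class: 1.39, 1.26 and 1.26 times against all islands of at least 5 kb, 1.26, 1.15 and 1.20 times against islands within 2.5 Mb, 2.25, 1.92 and 1.79 times under 3 kb, and 1.46, 1.27 and 1.3 times at the strict rate. Input reads per kb were 1.15, 1.07 and 1.04 times all islands of at least 5 kb, 1.12, 1.06 and 1.03 times islands within 2.5 Mb, 1.60, 1.51 and 1.08 times under 3 kb, and 1.08, 0.947 and 0.952 times at the strict rate, where the direction turned in WSU-DLCL2 and KARPAS-422. The cause was not tested. The nearest island of the same list lay at 18, 12 and 13.5 kb at the strict rate, which leaves fewer islands, and at 8.63, 6.75 and 8.25 kb with neighbours of at least 5 kb only. Meeting another line fell to 34.5%, 21.1% and 17.5% when only its islands with a fold of at least 2 counted, was 80%, 75.7% and 67.7% under 3 kb, and otherwise kept within its interval. No paired analysis was possible because each line had 1 library and no result comes from a test. With 1 library per line no library could be left out. A median of 29 input reads per short island in KARPAS-422 limits single folds most in that line. The results on gene starts and base composition were not run.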

Other observations

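Of 2893 bins of 1 Mb on the autosomes, a short island lay in 293 (Pfeiffer), 521 (WSU-DLCL2) and 826 (KARPAS-422), of which 31, 82 and 199 bins held exactly 2, 2, 11 and 38 held 3, and 0, 6 and 16 held at least 4. The fullest, chosen after its values were seen, was the first 1 Mb of chromosome 8, where KARPAS-422 had 8 short islands among 25 islands, with folds of 1.68 to 3.11, and Pfeiffer and WSU-DLCL2 had 2 each. On chromosome 19 the bin from 1000001 to 2000000 held 5 short islands among 19 islands of KARPAS-422. Their folds were 2.65 to 3.99, at an input of the surroundings of 0.687 of the median, against 0 short islands in Pfeiffer and 1 in WSU-DLCL2. On chromosome 13 from 50000001 to 51000000 KARPAS-422 had 5 among 12, with folds of only 1.43 to 1.65 at an input of the surroundings of 1.08. The other lines had 0 short islands there. WSU-DLCL2 had 5 short islands among 24 on chromosome 1 from 45000001 to 46000000, and 5 among 18 on chromosome 6 from 26000001 to 27000000. Their median folds were 2.28 and 2.20. In both bins Pfeiffer had 1, and KARPAS-422 had 3 and 2. How many islands of any length the other lines had in these bins was not counted, so differences between lines are not read. Bins of this size depend on where their borders fall.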
